A study of Mus musculus with 14 samples.

Results

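The FoxO genes and FoxO target genes described here are 10 rows of a count table of 24833 genes: the FoxO transcription factor genes Foxo1, Foxo3 and Foxo4, the cell cycle exit genes Ccng2 and Bcl6, the redox genes Txnip, Sod2 and Cat, and the sestrin genes Sesn1 and Sesn3. They were chosen by name as FoxO genes and targets of quiescence and antioxidant defence, and all 10 were measured and tested. RNA was sequenced from sorted bone marrow cells of C57BL/6 mice enriched for hematopoietic stem cells (lineage-negative, Sca-1-positive, Kit-positive, Flk2-negative, CD48-negative, CD150-positive, the SLAM gate). All mice received intraperitoneal injections: 3 libraries came from mice given PBS for 1 day, 3 from mice given the inflammatory cytokine IL-1β for 1 day, 4 from mice given PBS for 20 days and 4 from mice given IL-1β for 20 days. The dose of IL-1β was 0.5 µg per mouse per day. Each library is a biological replicate of cells pooled over 3 to 5 mice, so the spread between libraries is a spread between pools and not between animals.

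FoxO proteins are transcription factors that growth factor signalling restrains: PI3K activates AKT, AKT phosphorylates FoxO, and phosphorylated FoxO leaves the nucleus. When that signal is weak, FoxO enters the nucleus and switches on genes of cell cycle arrest, antioxidant defence, autophagy and cell death. Oxidative stress and acetylation act on the same proteins. In hematopoietic stem cells FoxO factors are known for keeping cells quiescent and their reactive oxygen species low. This control acts largely on the protein, so the mRNA of a FoxO gene is not a measure of FoxO activity.

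Totals ran from 21654896 to 29441947 counts per library, so 3 counts in 1 library amounted to 0.102 to 0.139 CPM (a count scaled to a common library size). Library titles fall into 4 naming sets whose meaning is not stated: 10k (1 against 1) and E060216 (2 against 2) at 1 day, and E061316 (2 against 2) and an untagged set (2 against 2) at 20 days. The 1-day 10k libraries are numbered 3 here, and the untagged 20-day libraries are replicates 3 and 4. Summed neutrophil markers (13 of 13 genes in the table) reached 2647 CPM in IL-1β 20-day replicate 3 against 97.8 to 194 CPM in the other 13 libraries, with Mmp8 at 0 in the PBS 20-day group. At 20 days the IL-1β libraries also lay above the PBS libraries for summed markers of multipotent progenitors (622 to 702 against 397 to 543 CPM), erythroid cells (200 to 219 against 77.3 to 106), megakaryocytes (859 to 1498 against 634 to 770) and T and NK cells (90.8 to 110 against 44.9 to 62.0, with Cd3g at 0 in the PBS group). For the gate itself, Slamf1, the gene of CD150, was at 89.6 to 116 CPM with IL-1β against 39.4 to 68.9 with PBS at 20 days, and Flt3, the gene of Flk2, at 78.7 to 139 against 40.8 to 60.4. At 1 day the IL-1β libraries likewise lay above the PBS libraries for summed markers of multipotent progenitors (574 to 619 against 496 to 564 CPM), erythroid cells (98.7 to 124 against 69.4 to 85.9) and neutrophils (129 to 153 against 97.8 to 126). Summed stem cell markers were lower with IL-1β within both 1-day sets. They were at 2468 and 2745 against 3350 and 3732 CPM in E060216, and at 1894 against 2450 CPM in 10k. Across the sets the 1-day ranges overlapped, as did those of 20 days (2754 to 2908 with IL-1β against 2352 to 3453 CPM with PBS). The part of these shifts in the results of either time was not tested, and in bulk RNA fewer cells of a type and less RNA per cell cannot be told apart.

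The 10 genes covered a wide range of levels. Per kilobase of annotated exons, in the 7 PBS libraries, Txnip was the highest at 461 ± 103 CPM per kb (SD, n = 7), followed by Cat at 93.4 ± 9.08, Sesn1 at 48.4 ± 6.02, Ccng2 at 18.6 ± 2.63 and Sod2 at 12.0 ± 1.08. Each of these 5 lay apart from its neighbours in that order, with no overlap between the PBS libraries. The order rests on the exon lengths used, and which annotation was counted is not known. In CPM not divided by length, Sod2 (102.8 to 138.2) overlapped Ccng2 (79.6 to 114.1) and had the higher mean. Foxo1 (5.24 ± 0.774 CPM per kb) and Foxo3 (4.47 ± 1.11) overlapped, as did Sesn3 (0.731 ± 0.0645) and Bcl6 (0.644 ± 0.165). Foxo4 was the lowest at 0.269 ± 0.0999 CPM per kb and rests on 11 to 46 counts per library. The coefficient of variation over the PBS libraries was lowest for Sesn3 (8.82%), Sod2 (9.05%) and Cat (9.72%) and highest for Foxo4 (37.2%), Bcl6 (25.6%) and Foxo3 (24.9%), beside a median of 19.1% over all genes tested.

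**Figure D1:**
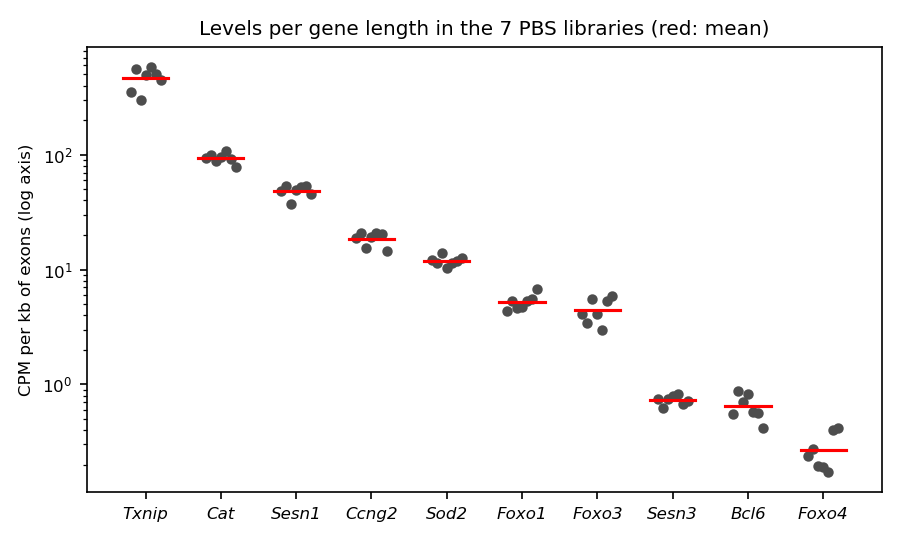
Levels of the 10 genes per kilobase of exons in the 7 PBS libraries of both durations. The y axis is CPM per kb on a log scale, each point is 1 library and the red bar is the mean. Txnip lies at a mean of 461 and Foxo4 at 0.269 CPM per kb, and the points of Foxo1 and Foxo3 and those of Sesn3 and Bcl6 overlap.

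Levels below are CPM scaled by TMM factors, which correct for differences in library composition. Differences are given on the log2 scale, IL-1β relative to PBS, each ± SE, and come from edgeR's two-sided quasi-likelihood F-test with a term for the naming set, with Benjamini-Hochberg adjustment over the 15466 genes tested and a threshold of 0.05. The SE was derived from the size of the change and its F statistic and is approximate. At 1 day, a short exposure, 1 of the 10 genes passed this test, Txnip, which fell, beside 4.35% of all genes tested (2.52% higher and 1.83% lower). DESeq2 called 1 of the 10 and 9.04% of all genes. At 20 days, a repeated exposure, 3 of the 10 passed, Ccng2, Bcl6 and Cat, which all rose, beside 7.46% of all genes (3.94% higher and 3.52% lower). DESeq2 called 4 of the 10, these and Sesn1, and 11.7% of all genes. Without IL-1β 20-day replicate 3, the library with the high neutrophil markers, 2 of the 10 passed at 20 days, Ccng2 and Bcl6, beside 763 genes in all.

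**Figure D2:**
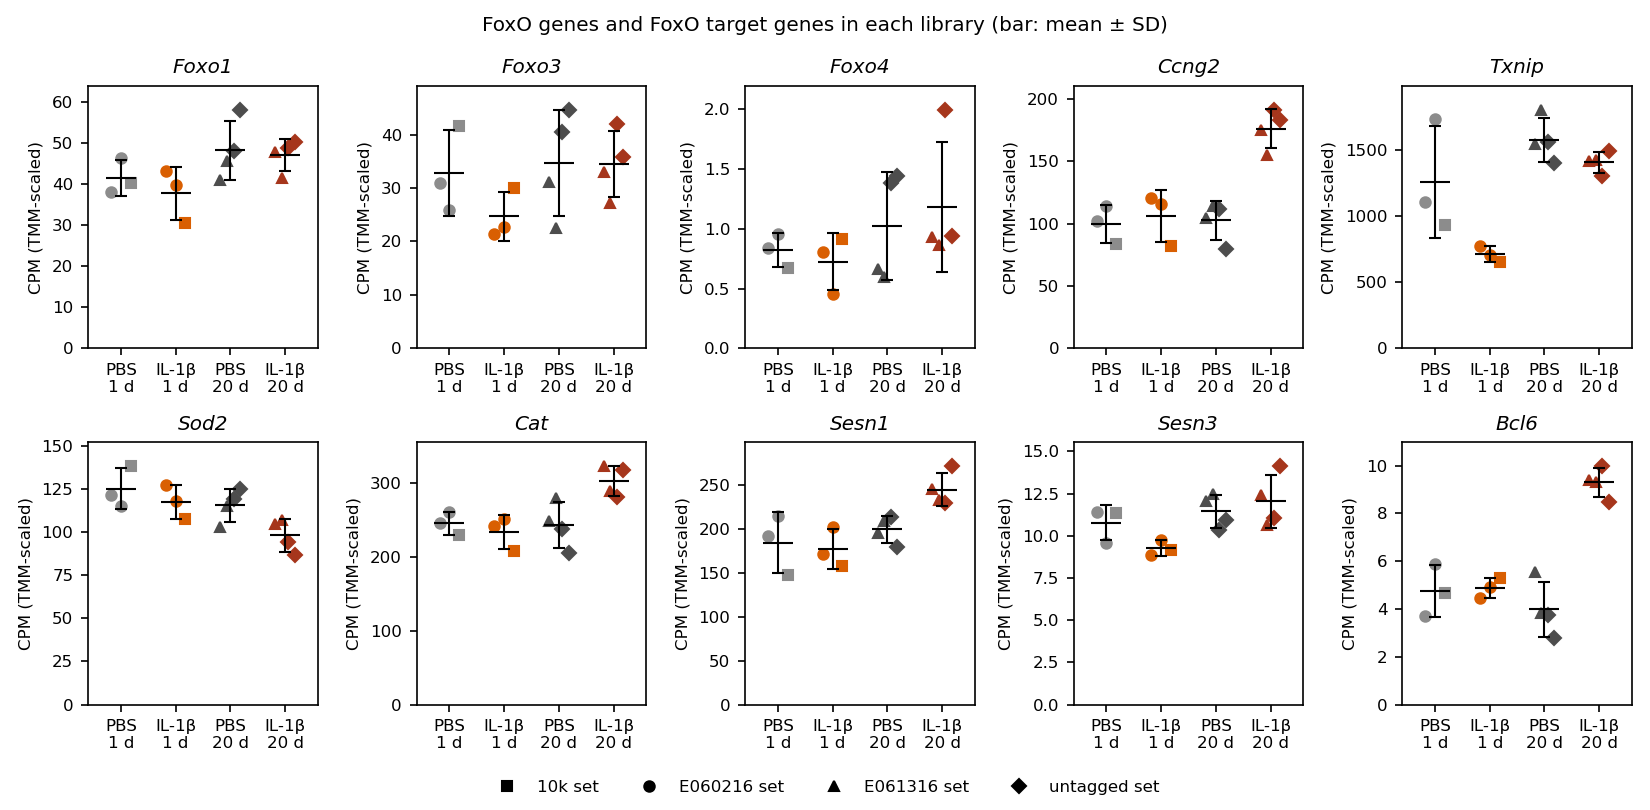
TMM-scaled CPM of the 10 genes in each of the 14 libraries, with y axes that start at 0. Points are libraries, shaped by naming set, and the bar and whiskers are the group mean ± SD (n = 3 at 1 day, n = 4 at 20 days). Txnip is low in the 3 IL-1β libraries of 1 day, and Ccng2, Cat, Sesn1 and Bcl6 lie above all 4 PBS libraries in the 4 IL-1β libraries of 20 days.

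None of the FoxO genes themselves passed the test at either time. Foxo1 (ENSMUSG00000044167; GRCm38 chr3:52268336-52353221, plus strand) was at 38.0, 46.4 and 40.3 CPM in the 3 PBS libraries of 1 day and at 43.1, 39.7 and 30.7 CPM with IL-1β. At 20 days it was at 41.1, 45.7, 48.0 and 58.1 CPM with PBS and at 48.0, 41.5, 48.8 and 50.4 CPM with IL-1β. The groups overlapped at both times. The log2 fold changes were -0.15 ± 0.13 at 1 day (adjusted p = 0.606) and -0.03 ± 0.11 at 20 days (adjusted p = 0.940).

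Foxo3 (ENSMUSG00000048756; chr10:42181841-42276755, minus strand) encodes the family member best known for stem cell maintenance. It was at 30.9, 25.9 and 41.6 CPM with PBS and at 21.4, 22.7 and 30.0 CPM with IL-1β at 1 day. The IL-1β values were on the low side, but the highest of them lay above the lowest PBS value. The log2 fold change was -0.40 ± 0.15 (unadjusted p = 0.0169, adjusted p = 0.154), with -0.47 in the 10k set and -0.36 in E060216. An unadjusted p under 0.05 was found for 18.8% of all genes at 1 day. At 20 days Foxo3 was at 31.0, 22.6, 40.5 and 44.6 CPM with PBS and at 33.0, 27.3, 42.1 and 35.9 CPM with IL-1β (0.02 ± 0.13, adjusted p = 0.959). The untagged libraries were above the E061316 libraries in both groups at 20 days, so that the spread of Foxo3 lay between naming sets more than between treatments.

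Foxo4 (ENSMUSG00000042903; chrX:101254528-101260873, plus strand) was near the limit of what these libraries measure. It was at 0.674 to 0.955 CPM with PBS and 0.454 to 0.914 CPM with IL-1β at 1 day, and at 0.5998 to 1.44 against 0.863 to 1.996 CPM at 20 days. Its SE of 0.52 at 1 day and 0.44 at 20 days exceeded its changes of -0.19 and 0.27 (adjusted p = 0.895 and 0.811), and a change of moderate size would not have been detectable at this depth.

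Ccng2 encodes cyclin G2, an unconventional cyclin that is high in cells leaving the cycle and a known FoxO target (ENSMUSG00000029385; chr5:93267257-93276231, plus strand). At 1 day it was at 102, 114 and 83.3 CPM with PBS and at 121, 116 and 82.1 CPM with IL-1β, with overlapping groups. After 20 days Ccng2 was at 105, 114, 112 and 79.6 CPM with PBS and at 175, 155, 191 and 183 CPM with IL-1β. All 4 IL-1β libraries lay above all 4 PBS libraries of that time. The means were 102 ± 15.8 and 176 ± 15.5 CPM (SD, n = 4 each), 1.72-fold higher with IL-1β. The log2 fold change was 0.78 ± 0.11 (adjusted p = 0.000714), with 0.59 in E061316 and 0.97 in the untagged set. Without IL-1β 20-day replicate 3 it was 0.73 (adjusted p = 0.00319). At 1 day the change was 0.08 ± 0.13 (adjusted p = 0.809).

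Bcl6 encodes a transcriptional repressor that FoxO factors induce and that in turn represses cyclin D genes (ENSMUSG00000022508; chr16:23965052-23988852, minus strand). It was at 3.70, 5.88 and 4.67 CPM with PBS and at 4.46, 4.91 and 5.30 CPM with IL-1β at 1 day, within the same range. After 20 days Bcl6 was at 5.56, 3.84, 3.76 and 2.80 CPM with PBS and at 9.41, 9.32, 9.98 and 8.50 CPM with IL-1β. The IL-1β libraries of 20 days were the 4 highest of all 14. The means were 3.99 ± 1.151 and 9.30 ± 0.612 CPM, 2.33-fold higher with IL-1β, on 64 to 262 counts per library. The log2 fold change was 1.24 ± 0.22 (adjusted p = 0.00315), with 0.99 in E061316 and 1.49 in the untagged set. Without IL-1β 20-day replicate 3 it was 1.146 (adjusted p = 0.0134), and that library's Bcl6 level was 9.98 CPM beside 8.50 to 9.41 CPM in the other 3. Bcl6 shares 21 exon bases (0.313%) with Gm37419 on the opposite strand, which was at 0 to 0.666 CPM. The libraries do not mark the strand, so reads of those bases cannot be told apart.

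Txnip encodes thioredoxin-interacting protein, which binds and inhibits the antioxidant thioredoxin and limits glucose uptake (ENSMUSG00000038393; chr3:96557957-96561883, plus strand). At 1 day it was at 1104, 1737 and 935 CPM with PBS and at 773, 706 and 652 CPM with IL-1β. All 3 IL-1β libraries lay below all 3 PBS libraries, and the PBS libraries spread widely. The means were 1259 ± 422 and 710.1 ± 60.6 CPM (SD, n = 3 each), 1.77-fold lower with IL-1β. The log2 fold change was -0.80 ± 0.15 (adjusted p = 0.00609), with -0.52 in the 10k set and -0.94 in E060216. Leaving out IL-1β 1-day replicate 1 ended this call (-0.79, adjusted p = 0.0525), and so did leaving out replicate 2 (-0.72, adjusted p = 0.0518). At 20 days Txnip was at 1547, 1804, 1561 and 1400 CPM with PBS and at 1414, 1422, 1301 and 1496 CPM with IL-1β. The marker shifts of 1 day given above stand beside the 1-day fall, and their part was not tested. The 20-day groups overlapped (-0.16 ± 0.13, adjusted p = 0.538).

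Txnip shares 606 exon bases, 19.4% of its exons, with the antisense gene Gm15441. Unstranded reads from that stretch cannot be assigned to one or the other. Gm15441 was listed at 1.54 to 2.98 CPM with PBS and at 0.866 to 1.86 CPM with IL-1β at 1 day, far under Txnip, with a log2 fold change of -1.39 in E060216 and 0.28 in the 10k set.

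Of the enzymes that remove reactive oxygen species, Cat passed the test at 20 days and Sod2 at neither time with all libraries. Cat encodes catalase, which breaks down hydrogen peroxide (ENSMUSG00000027187; chr2:103453849-103485160, minus strand). It was at 246, 261 and 230.3 CPM with PBS and at 242, 251 and 208 CPM with IL-1β at 1 day (-0.08 ± 0.10, adjusted p = 0.754). At 20 days it was at 248, 280.4, 238 and 205 CPM with PBS and at 323, 289.8, 282 and 318 CPM with IL-1β. The lowest IL-1β library of 20 days was only just above the highest PBS library. Catalase rose from 243 ± 31.1 to 303 ± 20.6 CPM, 1.25-fold (0.32 ± 0.09, adjusted p = 0.0326; 0.21 in E061316 and 0.44 in the untagged set). This call was lost in 10 of the 14 fits that left out 1 library. It held only without PBS 1-day replicate 3, IL-1β 1-day replicate 3, PBS 20-day replicate 2 or IL-1β 20-day replicate 2, and the adjusted p over the 14 fits ran from 0.0195 to 0.128. Without the library of high neutrophil markers the change was 0.34 (adjusted p = 0.0605).

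Sod2 encodes the mitochondrial superoxide dismutase (ENSMUSG00000006818; chr17:13006846-13040063, plus strand). It was at 122, 115 and 138 CPM with PBS and at 127, 118 and 108 CPM with IL-1β at 1 day (-0.09 ± 0.11, adjusted p = 0.761). After 20 days Sod2 was at 103, 115, 119 and 125 CPM with PBS and at 105, 107, 94.0 and 86.8 CPM with IL-1β. The groups overlapped through the E061316 libraries, and the difference was in the untagged ones (-0.04 in E061316, adjusted p = 0.878, and -0.43 in the untagged set, where it passed with an adjusted p of 0.0147). The difference between these sets was not tested. With all libraries the 20-day change was -0.24 ± 0.10 (unadjusted p = 0.0310, adjusted p = 0.186), at a time when 20.4% of all genes had an unadjusted p under 0.05.

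Sestrins restrain mTORC1 and support antioxidant defence. Sesn1 (ENSMUSG00000038332; chr10:41809935-41908424, plus strand) was at 191, 214 and 147 CPM with PBS and at 171, 202 and 158 CPM with IL-1β at 1 day (-0.05 ± 0.11, adjusted p = 0.876). At 20 days it was at 195, 209, 214 and 179.6 CPM with PBS and at 245, 232, 229 and 271 CPM with IL-1β. All 4 IL-1β libraries lay above all 4 PBS libraries of 20 days, but the change of 0.29 ± 0.09 missed the threshold (adjusted p = 0.0680; 0.24 in E061316 and 0.35 in the untagged set). DESeq2 with the same terms gave 0.30 and an adjusted p of 0.0239.

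Sesn3 (ENSMUSG00000032009; chr9:14275067-14333101, plus strand) varied less than Sesn1 over the PBS libraries (coefficient of variation 8.82% against 12.4%). It was at 9.59 to 11.4 CPM with PBS and 8.88 to 9.78 CPM with IL-1β at 1 day (-0.21 ± 0.17, adjusted p = 0.560), and at 10.4 to 12.5 against 10.6 to 14.1 CPM at 20 days (0.08 ± 0.15, adjusted p = 0.849). Groups overlapped at both times.

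**Figure D3:**
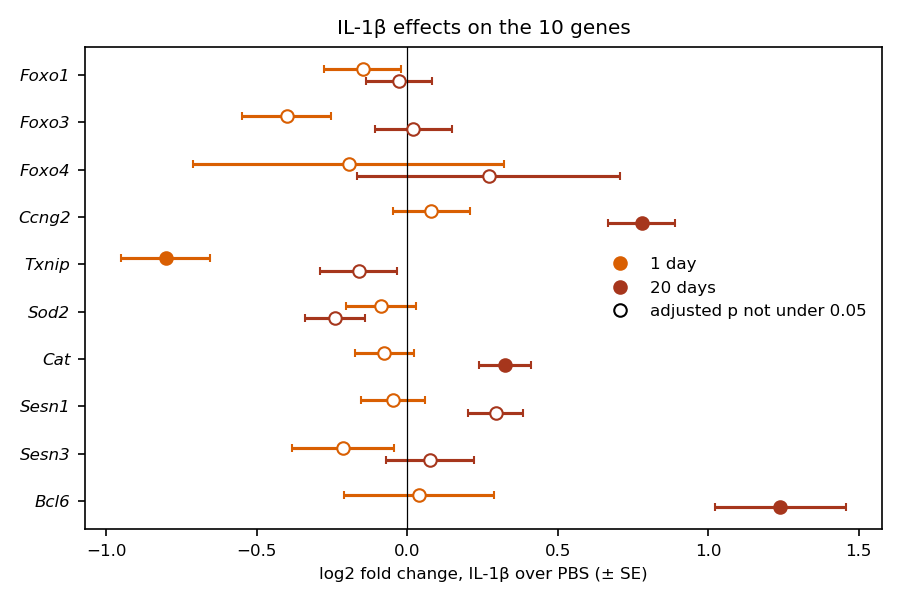
Log2 fold change of IL-1β over PBS ± SE for the 10 genes at 1 day (orange) and 20 days (brown). Filled points have an adjusted p under 0.05 by edgeR: Txnip at 1 day (-0.80) and Ccng2 (0.78), Cat (0.32) and Bcl6 (1.24) at 20 days.

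By ranges, the IL-1β and PBS libraries did not overlap for 1 of the 10 genes at 1 day, Txnip, beside 17.7% of all genes tested, so this count is no higher than the background. At 20 days they did not overlap for 4 of the 10, Ccng2, Bcl6, Cat and Sesn1, beside 10.4% of all genes tested. The median log2 fold change of the 10 genes was -0.12 at 1 day and 0.17 at 20 days, against -0.01 and -3e-04 over all genes tested. These counts and medians describe genes picked with results known and carry no test.

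The change in effect between durations was tested for each gene as the 20-day effect minus the 1-day effect. Ccng2 passed, with a difference of 0.70 ± 0.17 (adjusted p = 0.0491), so 1 of the 10 genes passed beside 2.14% of all genes tested (1.15% positive and 0.989% negative, and 18.4% at an unadjusted p under 0.05). That call sat at the threshold. It was lost in 11 of the 14 fits that left out 1 library and held only without PBS 20-day replicate 2, PBS 20-day replicate 4 or IL-1β 20-day replicate 2 (adjusted p from 0.0252 to 0.155). Bcl6 differed by 1.20 ± 0.33 (adjusted p = 0.0720), Txnip by 0.64 ± 0.19 (adjusted p = 0.0966) and Cat by 0.40 ± 0.13 (adjusted p = 0.119). DESeq2 called all 4 of these differences (adjusted p = 0.00362 for Ccng2, 0.0140 for Bcl6, 0.0201 for Txnip and 0.0358 for Cat), beside 7.64% of all genes tested. The remaining 6 genes had adjusted p from 0.205 (Sesn1) to 0.788 (Foxo4) in edgeR. Of the 10 differences, 9 were positive and that of Sod2 was negative (-0.15).

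**Figure D4:**
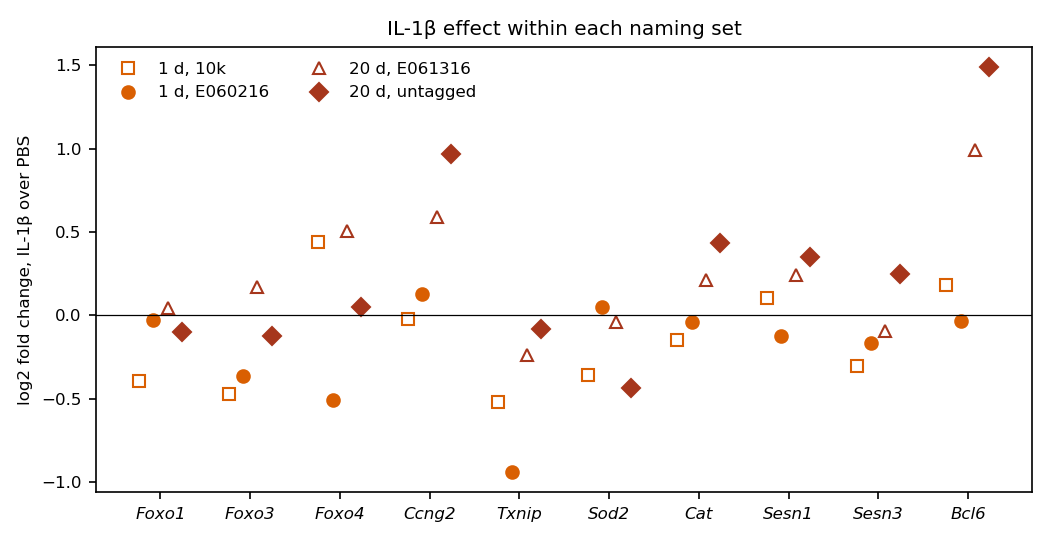
Log2 fold change of IL-1β over PBS within each naming set, for the 10 genes. Squares and circles are the 1-day sets 10k and E060216, and triangles and diamonds the 20-day sets E061316 and untagged. Txnip is negative in both 1-day sets (-0.52 and -0.94), and Ccng2, Cat, Sesn1 and Bcl6 are positive in both 20-day sets, further from 0 in the untagged one.

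The control groups of both durations were set against each other in a model without the naming set, which lies within duration, so that duration and naming set cannot be told apart. None of the 10 genes passed, and 0% of all genes tested passed by edgeR. The count was 676 at an unadjusted p under 0.05 (4.37%) and 10 by DESeq2 (0.0647%). The largest differences of the 10 genes were those of Txnip (0.33 ± 0.17, adjusted p = 0.9992) and Foxo4 (0.31 ± 0.51), and no gene of the 10 had PBS groups that did not overlap, beside 5.90% of all genes.

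Promoter sequence was read from RefSeq (GRCm38.p6) as the 250 bases before an annotated start. Windows were found for 9 of the 10 genes and made 11 in all. They were searched on both strands for GTAAACA, the FoxO core motif, whose other strand reads TGTTTAC, and for a variant, GTAAATA, whose other strand reads TATTTAC. Both differ in 1 letter and so cannot match at the same place. GTAAACA was in 1 of the 11 windows, that of Txnip, 121 to 115 bases before the start, and in 3.17% of 32851 windows of this length over all genes. GTAAATA was in none of the 11 and in 2.73% of all windows. A match is no evidence of binding, and FoxO sites of the other genes can lie outside these windows. The window of Ccng2, which also passed the test and rose, held no match. With a match in 1 window, motif and direction of change cannot be linked. The windows of Txnip, Bcl6 (its first start) and Cat are shown as examples of genes that passed, and of these only that of Txnip holds the motif. Each is given 5′ to 3′ on the strand of the gene, with the motif in capitals. They are chr3:96557707-96557956 (plus strand, lying in exons of the antisense gene Gm15441), chr16:23988853-23989102 (minus strand, no annotated exon) and chr2:103485154-103485403 (minus strand, with 7 bases in an annotated exon).
Txnip: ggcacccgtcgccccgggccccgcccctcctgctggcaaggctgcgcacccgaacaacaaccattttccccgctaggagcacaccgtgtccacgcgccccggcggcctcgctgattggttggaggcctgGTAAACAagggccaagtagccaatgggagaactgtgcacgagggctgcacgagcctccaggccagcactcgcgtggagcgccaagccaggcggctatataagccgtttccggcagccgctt
Bcl6: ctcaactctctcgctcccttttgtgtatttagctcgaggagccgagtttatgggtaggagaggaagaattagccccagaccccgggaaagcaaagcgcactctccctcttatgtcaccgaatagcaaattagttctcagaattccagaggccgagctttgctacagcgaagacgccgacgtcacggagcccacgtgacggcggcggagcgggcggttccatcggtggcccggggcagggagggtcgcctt
Cat: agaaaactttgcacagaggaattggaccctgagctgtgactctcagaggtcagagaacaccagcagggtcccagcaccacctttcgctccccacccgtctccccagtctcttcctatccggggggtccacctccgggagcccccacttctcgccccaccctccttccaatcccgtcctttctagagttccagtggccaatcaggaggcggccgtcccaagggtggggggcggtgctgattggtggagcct
The share of G and C was 66.8% in the Txnip window, 58.4% in that of Bcl6 and 62.0% in that of Cat.

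Other genes of the pathway were followed in 8 lists, whose shares of called genes stand beside 4.35% of all genes tested at 1 day and 7.46% at 20 days. Of 41 upstream regulators tested, none rose at either time and 2 fell at each (4.88%, near the share of all genes at 1 day and below it at 20 days), with a median log2 fold change of -0.01 at 1 day and 0.04 at 20 days. Pik3cd, which encodes a catalytic PI3K subunit, fell at 20 days (-0.64 ± 0.10, adjusted p = 0.00198). Pik3ip1, which encodes an inhibitor of PI3K, fell at 1 day (-0.70 ± 0.18, adjusted p = 0.0401), a call lost in 6 of the 14 leave-out fits (adjusted p up to 0.207, without PBS 1-day replicate 2), and had 0.35 ± 0.15 at 20 days (adjusted p = 0.203).

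Among 20 other targets of cell cycle exit and quiescence, 2 rose and 3 fell at 1 day, and 4 rose and 2 fell at 20 days (25% and 30% of the list, beside 4.35% and 7.46% of all genes), with medians of -0.26 and 0.23. The 1-day calls of this list stand beside the 1-day marker shifts given above, whose part was not tested. The list mixes genes that FoxO factors are known to repress, such as Ccnd1 and Ccnd2, with other targets. Its medians therefore give no direction of FoxO activity. The genes of the list that moved do not all arrest the cycle. Ccnd2, a D-type cyclin gene that FoxO factors are known to repress, fell from 494 ± 57.1 to 319 ± 40.2 CPM at 1 day (-0.63 ± 0.11, adjusted p = 0.00534) and from 536 ± 105 to 249 ± 6.26 CPM at 20 days (-1.09 ± 0.10, adjusted p = 2.07e-05). Ccnd1, another repressed cyclin gene, fell from 30.5 ± 5.18 to 8.02 ± 1.68 CPM at 20 days (-1.92 ± 0.18, adjusted p = 2.45e-05). Foxm1, whose product drives mitotic genes, rose from 64.1 ± 8.70 to 114 ± 16.6 CPM at 1 day (0.83 ± 0.15, adjusted p = 0.00534) and from 54.4 ± 3.83 to 75.4 ± 11.3 CPM at 20 days (0.47 ± 0.13, adjusted p = 0.04004). Cdkn2d, which encodes the kinase inhibitor p19, rose at 20 days (0.41 ± 0.09, adjusted p = 0.0122).

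Some of these calls depended on single libraries. At 1 day Ccnd2 missed the threshold when IL-1β 1-day replicate 1 was left out (adjusted p = 0.0578) and Foxm1 did without PBS 1-day replicate 2 (adjusted p = 0.0502), and the 20-day call of Foxm1 was lost in 9 of the 14 leave-out fits (up to 0.137, without IL-1β 20-day replicate 3). The 20-day calls of Ccnd1, Ccnd2 and Cdkn2d held in all 14. The other called members, named after their values were seen, were the growth arrest gene Gadd45g (0.99 at 1 day and 0.84 at 20 days), Btg1 (-0.58) and the glucocorticoid-induced Tsc22d3 (-0.88) at 1 day, and Id1 (0.84) at 20 days. Id1 is an inhibitor of differentiation that FoxO factors can repress, and it was at 49.5 and 52.7 CPM in the 10k libraries against 2.24 to 15.2 in the other 12. The calls of these genes were lost in 3, 1, 4, 3 and 6 of the 14 leave-out fits, in that order.

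Of 9 cell death targets tested, none passed at 1 day and 1 rose at 20 days (11.1%, beside 7.46% of all genes). Pmaip1, which encodes the BH3-only protein Noxa, was at 0.353, 0.720, 0.304 and 0 CPM with PBS and at 2.37, 3.20, 3.82 and 3.99 CPM with IL-1β at 20 days (3.35 ± 0.68, adjusted p = 0.00859). Its 20-day IL-1β libraries lay above the PBS libraries of both times, the latter reaching 2.02 CPM at 1 day. This call held in all 14 leave-out fits, and the size of the change rests on few counts.

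Of 8 targets of trafficking and lymphocyte biology 5 were tested, and 3 of these rose at 20 days (60.0%, beside 7.46% of all genes) and none passed at 1 day (medians 0.48 and 0.01). Itgb7, an integrin chain gene, went from 24.0 ± 1.26 to 18.1 ± 1.06 CPM at 1 day (-0.41 ± 0.15, adjusted p = 0.143) and rose from 22.3 ± 6.50 to 43.0 ± 6.36 CPM at 20 days (0.98 ± 0.13, adjusted p = 0.000362). Its effects at both times differed by 1.39 ± 0.19 (adjusted p = 0.00596), and both results held in all 14 leave-out fits. Cxcr4, the receptor of the niche chemokine CXCL12, also rose (0.48 ± 0.12, adjusted p = 0.0267), with a call lost in 6 of the 14 fits. With IL-1β 20-day replicate 3 left out it did not pass (adjusted p = 0.105), and Itgb7 was then the 1 called member. As given above, summed markers of progenitors and of T and NK cells were also higher in the IL-1β libraries of 20 days, and their part in these results was not tested.

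Of 10 metabolism and feedback targets tested, the ubiquitin ligase gene Trim8 fell at 1 day (-0.36 ± 0.09, adjusted p = 0.0370) and Klhl24 rose at 20 days (0.50 ± 0.13, adjusted p = 0.0331), calls lost in 8 and 5 of the 14 leave-out fits, and no gene of this list passed at 20 days without IL-1β 20-day replicate 3. This was 1 of the 10 at each time, beside 4.35% and 7.46% of all genes, and the medians were -0.25 and -0.04. Of 24 autophagy genes, 1 fell at 1 day (4.17%, near the 4.35% of all genes), and 2 rose and 1 fell at 20 days (12.5%, beside 7.46%), with medians of -0.11 and 0.08. Gabarapl1, whose product coats autophagosomes, fell at both times (-0.39 ± 0.08, adjusted p = 0.00971, and -0.27 ± 0.07, adjusted p = 0.0232), with calls lost in 4 and 3 of the 14 fits. Pink1, a kinase gene of mitophagy, rose at 20 days (0.41 ± 0.11, adjusted p = 0.0355), as did Atg12 (0.27 ± 0.08, adjusted p = 0.0461). The call of Pink1 was lost in 9 and that of Atg12 in 14 of the 14 fits, and without IL-1β 20-day replicate 3 no autophagy gene passed at 20 days.

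Of 30 other antioxidant enzymes tested, 1 rose at 1 day (3.33%, under the 4.35% of all genes), and 1 rose and 3 fell at 20 days (13.3%, beside 7.46%). The median was 0.10 at 1 day (-0.01 in the 10k set and 0.16 in E060216) and -0.12 at 20 days (0.04 in E061316 and -0.33 in the untagged set), so the direction of the 20-day median was that of the untagged libraries. Prdx6, a peroxiredoxin gene with a close copy elsewhere in the genome, between which reads may be split, fell from 798 ± 70.3 to 602 ± 26.6 CPM at 20 days (-0.40 ± 0.08, adjusted p = 0.00893), and this call held in all 14 leave-out fits. Hmox1, heme oxygenase 1, fell from 7.72 ± 3.19 to 3.14 ± 1.62 CPM at 20 days with overlapping groups (-1.40 ± 0.38, adjusted p = 0.0380). Txn2, the mitochondrial thioredoxin gene, named after its values were seen, also fell (-0.39 ± 0.11, adjusted p = 0.0469), and Idh1, which supplies NADPH, rose (0.45 ± 0.13, adjusted p = 0.0445). Gclm, a subunit gene of glutathione synthesis, rose at 1 day from 219 ± 11.2 to 274 ± 21.0 CPM (0.32 ± 0.09, adjusted p = 0.0460). The calls of Hmox1, Txn2, Idh1 and Gclm were lost in 7, 10, 10 and 10 of the 14 fits, and without IL-1β 20-day replicate 3 Prdx6 was the 1 called gene of this list at 20 days (adjusted p = 0.0380).

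Of 16 redox sensors and oxidant sources, none passed at 1 day and 2 rose at 20 days (12.5%, beside 7.46% of all genes), the NADPH oxidase subunit genes Ncf1 (0.76 ± 0.21, adjusted p = 0.04004) and Ncf4 (0.49 ± 0.13, adjusted p = 0.0392). Ncf1 was at 10.6, 10.97, 24.6 and 12.5 CPM in the IL-1β libraries of 20 days and at 5.65 to 11.9 CPM in the PBS libraries. The highest value was that of replicate 3, the library with 2647 CPM of summed neutrophil markers. Without it the changes were 0.51 (adjusted p = 0.173) for Ncf1 and 0.43 (adjusted p = 0.123) for Ncf4, so neither passed.

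**Figure D5:**
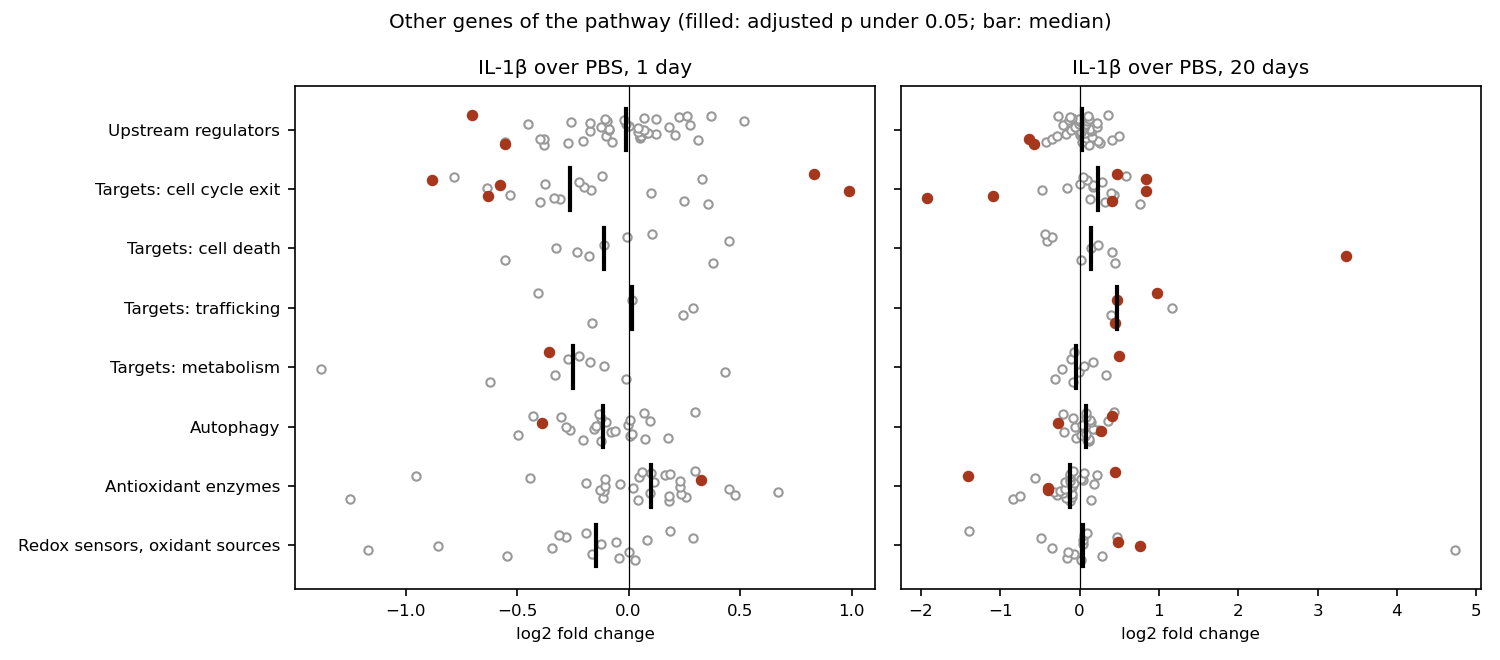
Log2 fold change of IL-1β over PBS for each tested gene of the 8 other pathway lists, at 1 day (left) and 20 days (right). Filled points have an adjusted p under 0.05 by edgeR and the black bar is the list's median. The medians lie between -0.26 and 0.10 at 1 day and between -0.12 and 0.48 at 20 days, and Pmaip1 (3.35) and Ccnd1 (-1.92) are the called genes furthest from 0 at 20 days.

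For the 4 genes of the 10 that passed, the most similar genes over the 14 libraries were found by Pearson's r of log2 CPM after the mean of each naming set was subtracted. These are descriptions over libraries that share treatment, with no test. Ccng2 ran with Specc1 and with Smad1, a mediator of BMP signalling (r = 0.98 for both). Bcl6 ran with the G-CSF receptor gene Csf3r and with Pmaip1 (r = 0.94 for both). Cat ran with Ostm1 (r = 0.98) and the histone deacetylase gene Hdac5 (r = 0.97), and Txnip with Adck3 (r = 0.93).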

How the data were processed

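The members, the gene lists and the tests were chosen with earlier results of these data known. RNA of sorted cells was amplified with SMARTer chemistry and made into Nextera XT libraries, read from a single end, per the labels' protocols. This chemistry marks no strand and the reads carry no molecular identifiers, so floors cover counting error only. The submitters' processing notes name the build GRCm38.p4, the counter HTSeq 0.6.1, the trimmer Trimmomatic 0.32, the aligner STAR 2.4.2a, DESeq2 1.12.3, Cufflinks 2.0.2 and Cuffdiff, without saying how each was used. Which annotation was counted, and with which strand option, is not given in the sources used here. Deposited by the authors were whole-number raw counts per gene symbol, whose totals differ between libraries.

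Replicates of a group were compared first: over 18 pairs chi-square per degree of freedom was 10.7 to 74.4, so none were the same library. The counts were tested in R 4.3.3 with edgeR 4.0.16 (TMM factors, filterByExpr on groups with a minimum count of 10, robust quasi-likelihood F-test), with all 14 libraries, 1 term for naming set and 1 IL-1β term for each duration (8 residual degrees of freedom, biological coefficient of variation 0.198). The fit of group means left 10 residual degrees of freedom. The procedure was tested on simulated data with the same spread for every gene, no difference between naming sets and changes larger than that of Cat. That run does not speak for calls of small changes. Alternatives were RLE and upper-quartile factors, DESeq2 1.42.0, no filter, other covariates and samples, single naming sets and each library left out. A fit without a library that leaves 1 of its arm in a naming set borrows the spread of the others. Gene coordinates, exon lengths and overlaps came from GENCODE M21 (GRCm38), and promoters from RefSeq (GRCm38.p6). Named genes are the 10 members, up to 4 called members of each other list by smallest p, and the 2 most similar genes of each called member, without predicted genes, with a pseudocount of 0.5 CPM. Gadd45g, Btg1, Tsc22d3, Id1, Txn2, Gadd45a, Bach1, Slamf1, Flt3 and the overlapping genes were named outside this rule, after their values were seen. Some genes that this rule picks are not reported here.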

Additional observations from a re-analysis of the deposited data

Results flagged for a closer look

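Foxo4 was at 1.996 CPM in IL-1β 20-day replicate 3, apart from the other 3 libraries of its group at 0.863 to 0.940 CPM. Its gap to the nearest was 0.933 of the range of the group, on few counts. A gap above 0.829 of the range arises by chance in about 1 in 20 groups of 4 libraries. Both 20-day groups of all 10 genes were searched for such gaps. The same library held the high neutrophil markers.

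Among 165 genes searched (the 10 genes and the tested genes of the 8 other lists), 9 had effects of IL-1β at 20 days and at 1 day that differed by the interaction test of edgeR. This is 5.45%, beside 2.14% of all genes tested. Ccng2 differed by 0.70 on the log2 scale (0.78 against 0.08), a call that most leave-out fits lost. Pik3ip1 differed by 1.06 (0.35 against -0.70, adjusted p = 0.0385), and its values at 1 day were 263, 430 and 247 CPM with PBS and 218, 157 and 197 with IL-1β. Ccnd1 differed by -1.59 (-1.92 against -0.33, adjusted p = 0.0137), a call lost without PBS 1-day replicate 2 (0.0634) or IL-1β 1-day replicate 2 (0.0524). Itgb7 differed by 1.39 and kept its call in all 14 leave-out fits. Pink1 differed by 0.84 (adjusted p = 0.0275): it was at 184 to 196 CPM with IL-1β and 235 to 271 CPM with PBS at 1 day, and at 275 to 372 against 207 to 271 CPM at 20 days. Ncf1 differed by 1.62 (adjusted p = 0.0283), and by 1.37 without IL-1β 20-day replicate 3 (adjusted p = 0.0451). Gadd45a differed by 0.96 (-0.53 and 0.43), Btg1 by 0.75 (-0.58 and 0.17) and Bach1, which encodes a repressor of heme oxygenase 1, by 0.83 (-0.54 and 0.28). Calls of this kind were lost in 8 (Pik3ip1), 6 (Pink1), 5 (Ncf1), 9 (Gadd45a), 12 (Btg1) and 12 (Bach1) of the 14 leave-out fits.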

How the results depend on the processing

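Ccng2 at 20 days passed under every alternative run, and Bcl6 under all but the E061316 libraries alone (0.99, adjusted p = 0.103). Cat at 20 days was lost with the 20-day libraries alone (adjusted p = 0.0832), without the naming set term (0.113), with the replicate block (0.0950) and within E061316 (0.21, adjusted p = 0.336). Sod2 at 20 days passed within the untagged set (-0.43, adjusted p = 0.0147). The number of genes called moved far more. At 1 day it was 672, against 1398 with DESeq2, 1200 with the 1-day libraries alone, 290 without the naming set term, 2 within the 10k set (none of the 10 genes), 1152 within E060216, and 228 to 1244 over the leave-out fits (0 to 1 of the 10 genes). At 20 days it was 1154, against 1809 with DESeq2, 750 with the 20-day libraries alone, 525 without the naming set term, 444 within E061316 (1 of the 10 genes), 1979 within the untagged set (4 of the 10 genes), and 648 to 1156 over the leave-out fits (2 to 3 of the 10). For the difference between durations it was 331, against 1182 with DESeq2 (4 of the 10), 23 without the naming set term (0 of the 10), and 34 to 604 over the leave-out fits (0 to 1 of the 10). Between PBS groups DESeq2 called 10 genes, with 0 over the leave-out fits in edgeR. Upper-quartile factors gave 344 higher and 399 lower genes at 1 day, where TMM gave 389 and 283. The cause of these differences was not tested.

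Same-numbered libraries did not deviate together (correlations of -0.06, 0.15 and -0.01), so the numbers were not taken as pairs. With the replicate block 383 genes passed at 1 day, 672 at 20 days and 23 for the difference between durations (0 of the 10 genes).

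Directions changed where the value was close to 0 or the counts few. At 1 day Bcl6 was at -0.0022 with upper-quartile factors and -0.0331 within E060216, Sod2 at 0.0497 within E060216, and Foxo4, Ccng2 and Sesn1 at 0.44, -0.0209 and 0.11 within the 10k set. At 20 days Foxo3 was at -0.0055 without the naming set term and -0.13 within the untagged set, and Foxo1 and Sesn3 at 0.0447 and -0.093 within E061316. Over the leave-out fits Bcl6 ran from -0.11 to 0.27, Sesn1 from -0.12 to 0.0528, Sod2 from -0.15 to 0.0521 and Foxo4 from -0.50 to 0.10 at 1 day, and Foxo3 from -0.0931 to 0.0801, Foxo1 from -0.0836 to 0.0451 and Sesn3 from -0.0491 to 0.15 at 20 days. For the difference between durations Foxo1 ran from -0.0174 to 0.22. Between PBS groups Foxo3 ran from -0.0747 to 0.31, Cat from -0.0923 to 0.0484, Ccng2 from -0.0609 to 0.15 and Sesn1 from -0.0106 to 0.24. Foxo4 (11 to 46 counts) and Pmaip1 are limited by depth.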
